A study of Arabidopsis thaliana with 24 samples.

Results

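QQS (locus AT3G30720) is a small protein-coding gene of chromosome 3 of Arabidopsis thaliana. Its 1 probe set, of 22746 non-control probe sets, was followed across all 24 leaf arrays. QQS was chosen by its array signal, which was higher in the SOS1 line than in its wild type at both salt levels. The SOS1 against Col(gl) values below are therefore a description of what chose the gene and carry no test. The 12 groups held 2 Affymetrix ATH1 arrays each and paired 3 transgenic lines with their wild types, each at 100 mM NaCl and at 0 mM NaCl. The CBF3 line, labelled as an overexpressor of a cold-response transcription factor, has the Ws (Wassilewskija) background and was set against Ws. The M6PR line, which carries a celery mannose-6-phosphate reductase and can thereby make mannitol, has the Col-0 background and was set against Col. The SOS1 line, labelled as an overexpressor of SOS1, which exports sodium from the cell, has the Col(gl) background, a name commonly used for a glabrous (hairless) Columbia that the labels do not spell out, and was set against Col(gl). All plants were 20 days old, in short days (10 h light, 14 h dark). Salt had been raised in steps of 50 mM from day 14, 6 days before leaves of at least 15 seedlings were collected for a sample. The promoters of the transgenes and the number of independent lines are not named in the labels.

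QQS, short for QUA-QUINE STARCH, is known as an orphan gene: its protein has no recognised relative outside Arabidopsis thaliana. It was found through its altered RNA level in a starch synthase mutant, and leaves with less QQS RNA are known to hold more starch. Its protein binds NF-YC4, a subunit of a transcription factor complex, and its RNA level is known to differ between accessions along with DNA methylation near the gene. In the RefSeq annotation (assembly TAIR10.1) the 5 genes on each side of QQS were 6 pseudogenes, 1 transcribed pseudogene, 1 long non-coding RNA and 2 protein-coding genes. None of the 10 NF-Y factors listed for comparison, NF-YC4 among them, had a probe set paired with 1 gene.

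Values are log2 RMA signals, so a difference of 1 is a 2-fold difference. Array medians lay between 5.77 and 6.09. A pair of arrays, Ws 100 mM replicate 1 and Col 100 mM replicate 1, stood apart in control probe sets: their signals for a ribosomal RNA control were 4.98 and 4.52, against 6.58 to 10.4 in the other 22 arrays, and their 3' minus 5' signals of actin were 2.04 and 1.61, against 0.539 to 1.15. The planned QQS comparisons resting on these arrays, and the calls named here that other genes lost, are also given without them. The averages over part of the genotypes, the permutation test, Col(gl) minus Col at 100 mM and the differences added later are not. The leaf markers RCA, for Rubisco activase, and LHCB4.1, for a light-harvesting protein, were the 2 of 12 listed leaf genes that could be measured. Both had signals above 13 on every array, with group means of 13.46 to 13.91 for RCA and 13.31 to 13.57 for LHCB4.1. The overexpressed genes CBF3 (DREB1A) and SOS1 had no probe set paired with 1 gene, so the lines were not checked by their transgenes.

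QQS was lowest in every group of the Ws background and highest in the SOS1 line. The SOS1 arrays read 8.53 and 8.54 at 100 mM and 8.59 and 8.42 at 0 mM. Col arrays read 5.57 and 6.12 at 100 mM and 7.49 and 7.63 at 0 mM. M6PR arrays read 6.17 and 5.73 at 100 mM and 6.51 and 6.27 at 0 mM. The 4 SOS1 arrays were thus above every other array, and the unsalted Col arrays stood next, apart from the remaining Columbia-background arrays.

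Col(gl) arrays read 6.28 and 6.42 at 100 mM and 6.13 on both arrays at 0 mM. CBF3 arrays read 4.32 and 3.77 at 100 mM and 4.68 and 4.21 at 0 mM. Ws arrays read 3.93 and 4.18 at 100 mM and 4.55 and 4.0995 at 0 mM. All CBF3 and Ws arrays lay in 1 low band, in which CBF3 and Ws overlapped at each salt level.

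**Figure D1:**
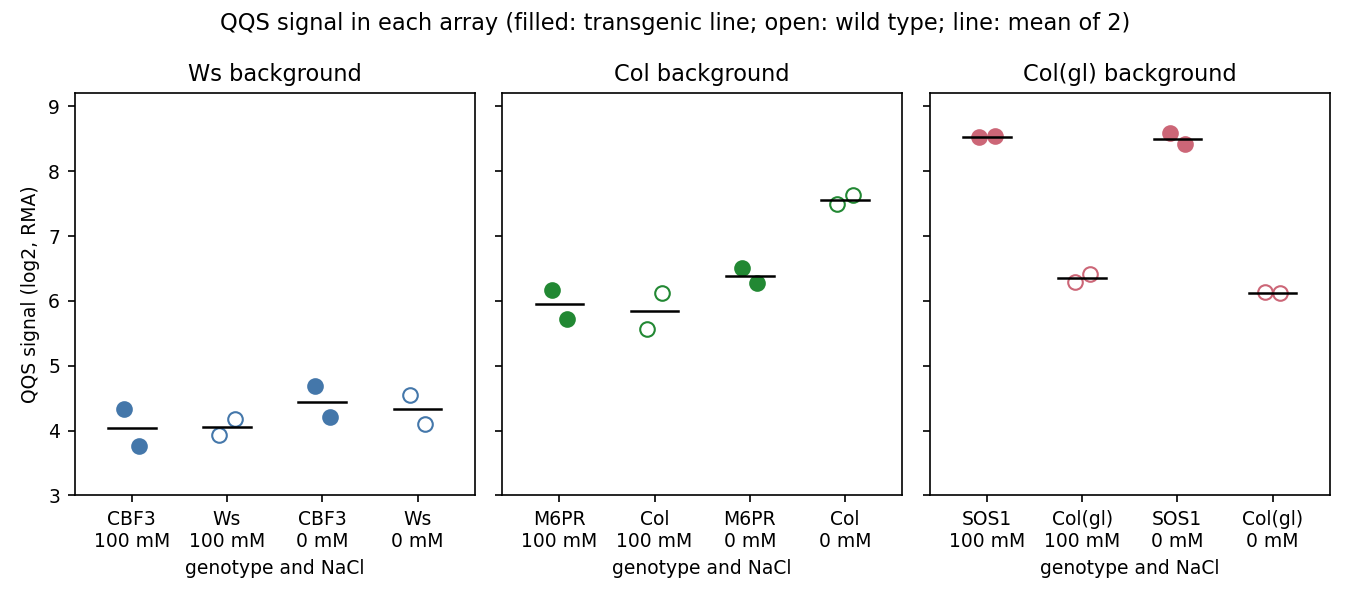
QQS log2 RMA signal of each of the 24 arrays, by genotype and NaCl, in 3 panels for the Ws, Col and Col(gl) backgrounds; filled circles are transgenic lines, open circles wild types, and the bar is the mean of 2 arrays. The 8 Ws-background arrays sit between 3.77 and 4.68, the 4 SOS1 arrays between 8.42 and 8.59, and the Col arrays at 0 mM at 7.49 and 7.63.

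Ordered by group mean, the levels ran as follows: SOS1 at 100 mM (8.53 ± 0.01, SD, n = 2 here and below) and at 0 mM (8.50 ± 0.12), Col at 0 mM (7.56 ± 0.10), and M6PR at 0 mM (6.39 ± 0.17). Next came Col(gl) at 100 mM (6.35 ± 0.10) and at 0 mM (6.13 ± 0.00), M6PR at 100 mM (5.95 ± 0.31) and Col at 100 mM (5.84 ± 0.39). The Ws background closed the order with CBF3 at 0 mM (4.45 ± 0.34), Ws at 0 mM (4.33 ± 0.32), Ws at 100 mM (4.06 ± 0.18) and CBF3 at 100 mM (4.05 ± 0.40). Neighbours in this order had arrays that did not overlap at only 4 steps. These were SOS1 at 0 mM over Col at 0 mM (a step of 0.94), Col at 0 mM over M6PR at 0 mM (1.17), Col(gl) at 100 mM over Col(gl) at 0 mM (0.23), and Col at 100 mM over CBF3 at 0 mM (1.40). At the other 7 steps the arrays of neighbouring groups overlapped.

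The whole span from the lowest to the highest group mean was 4.49 log2 units. Of the sum of squares of QQS over the 24 arrays, 73.6% lay between the 3 backgrounds and 19.1% between line and wild type within a background. Salt averaged over genotypes held 1.93%, the differing response of genotypes to salt 4.06%, and the 2 arrays of a group 1.25%. The pooled SD within groups was 0.244 for QQS and 0.206 for the median probe set, so the arrays of a group were about as close for QQS as for other probe sets. The SD of the 12 group means was 1.60 for QQS and 0.227 for the median probe set, and 0.55% of probe sets had a larger one. These shares describe a gene that was picked for part of this spread.

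The choice of QQS required a rise at both salt levels, and its size is described here. At 100 mM QQS averaged 8.53 in SOS1 and 6.35 in Col(gl), a difference of 2.18 ± 0.23 log2 units (SE of the fit), or 4.53-fold. At 0 mM it averaged 8.50 in SOS1 and 6.13 in Col(gl), a difference of 2.37 ± 0.23, or 5.19-fold. The SOS1 and Col(gl) arrays did not overlap at either level. The difference changed by -0.19 ± 0.33 with salt (95% interval -0.90 to 0.51), again without a test. In these 2 comparisons limma called 3.13% of all probe sets at 100 mM and 1.24% at 0 mM, which is given as background only. With 1 of their arrays left out, the QQS difference ran from 2.11 to 2.25 at 100 mM and from 2.29 to 2.46 at 0 mM.

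Markers of other tissue or state were read in SOS1 against Col(gl) as well, and of the root and senescence markers only SAG101 passed with all arrays. PYK10, for a beta-glucosidase abundant in roots, read 7.24 and 6.72 in SOS1 and 3.95 and 3.92 in Col(gl) at 100 mM. At 0 mM it read 6.43 and 7.52 in SOS1 and 4.11 and 4.01 in Col(gl). The SOS1 arrays were above the Col(gl) arrays at both levels, with log2 differences of 3.04 ± 0.79 and 2.92 ± 0.79 (SE) that did not pass limma's adjusted threshold (adjusted p = 0.0502 and 0.0895). In the fit without the pair of arrays with weak rRNA signal, which pools a smaller spread, the same PYK10 differences passed (adjusted p = 0.00290 and 0.00640).

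EXPA7, a root hair expansin and the other of the 2 measured among 6 listed root genes, had differences of 0.11 ± 0.25 and 0.14 ± 0.25 (SE) that did not pass. The log2 of the summed signal of both root markers ran from 6.93 to 7.66 over the SOS1 arrays and from 5.15 to 5.44 over the Col(gl) arrays. SAG101, which encodes a lipase-like protein and stands in the senescence list, fell in SOS1, by 1.02 on the log2 scale at 100 mM (adjusted p = 0.0169) and by 1.04 at 0 mM (adjusted p = 0.0289). WRKY53, for a WRKY transcription factor and the other senescence gene, did not pass: it read 6.21 and 5.61 in SOS1 and 6.42 and 6.44 in Col(gl) at 100 mM, and 6.92 and 8.86 in SOS1 and 6.67 and 6.44 in Col(gl) at 0 mM. Its differences were -0.52 ± 0.42 and 1.33 ± 0.42 (SE, adjusted p = 0.668 and 0.144). The log2 of the summed signal of the 2 measured of 8 senescence genes ran from 6.26 to 9.01 in SOS1 and from 7.22 to 7.46 in Col(gl), which overlap. The part of root or senescing tissue in the QQS values was not tested. In bulk leaf RNA, a different share of cells and a different amount of RNA per cell cannot be told apart.

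The other 2 lines showed no such rise. CBF3 and Ws differed in QQS by -0.01 ± 0.23 log2 units at 100 mM (SE, n = 2 arrays per group, adjusted p = 0.987, 95% interval -0.51 to 0.49) and by 0.12 ± 0.23 at 0 mM (adjusted p = 0.882, -0.38 to 0.62). The arrays overlapped at both levels. Without the Ws array of weak rRNA signal the difference at 100 mM was -0.14 (adjusted p = 0.905). The fit called 3.73% and 6.79% of all probe sets in these comparisons. The difference between the CBF3 and SOS1 line effects was not tested, since the SOS1 value chose the gene. The QQS signal in all CBF3 and Ws arrays was low, and no detection calls entered the comparison. A change below the level that the probe set can read would therefore not be seen.

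M6PR at 0 mM was lower than Col. QQS averaged 6.39 ± 0.17 in M6PR and 7.56 ± 0.10 in Col (SD, n = 2 each), and both M6PR arrays were below both Col arrays. The log2 difference was -1.17 ± 0.23 (SE, adjusted p = 0.00447), or 2.24-fold lower in M6PR, in a comparison that called 10.3% of probe sets, 2346 in all, and 5.44% as lower. Without Col 0 mM replicate 2 it was -1.10 (adjusted p = 0.0507), and without M6PR 0 mM replicate 2 it was -1.05 (adjusted p = 0.0592), so the call rested on each of these arrays. The trichome gene TRY, for a repressor of hair formation and the 1 measured of 8 listed, was also lower: it read 5.22 and 5.28 in M6PR and 8.09 and 7.88 in Col at 0 mM, and fell by 2.73 on the log2 scale (adjusted p = 0.000199). TRY fell as well where QQS had no call, in CBF3 against Ws (log2 differences of -1.97 at 100 mM and -3.0 at 0 mM) and with salt in Ws (-1.36, and -1.16 with the call lost without the array of weak rRNA signal). Its group means correlated with those of QQS at r = -0.04 over the 12 groups and 0.20 over the 8 groups of the Ws and Col backgrounds. SAG101 rose in M6PR against Col at 0 mM by 0.81 ± 0.21 (adjusted p = 0.0228). Their part in the QQS value was not tested. At 100 mM QQS averaged 5.95 ± 0.31 in M6PR and 5.84 ± 0.39 in Col, with overlapping arrays and a difference of 0.10 ± 0.23 (adjusted p = 0.792, 95% interval -0.39 to 0.60), where 0.528% of probe sets were called. Without Col 100 mM replicate 1, the array with weak rRNA signal, that difference was -0.17.

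The Col wild type at 0 mM also stood above the other Columbia wild type. QQS averaged 6.13 in Col(gl) and 7.56 in Col at 0 mM, a difference of -1.43 ± 0.23, while at 100 mM it averaged 6.35 in Col(gl) and 5.84 in Col, a difference of 0.51 ± 0.23. The fit called 14.1% of probe sets at 0 mM and 10.5% at 100 mM. These values carry no test, because the Col(gl) arrays entered the choice of QQS. The Col arrays at 100 mM read 5.57 and 6.12, the lower from the array of weak rRNA signal. The M6PR mean at 0 mM (6.39) lay closer to Col(gl) (6.13) than to Col (7.56). The 0 mM Col arrays enter the M6PR comparison at 0 mM and the salt comparison in Col alike, so those results are not independent of each other.

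**Figure D2:**
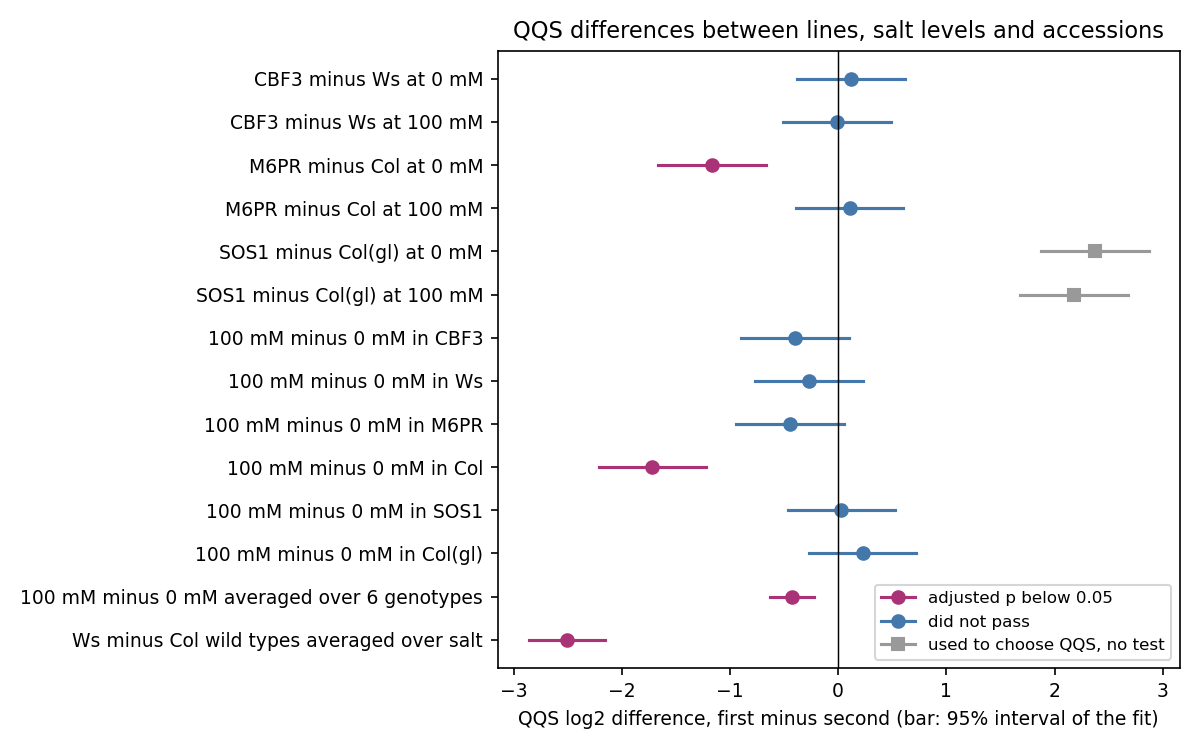
QQS log2 differences, first minus second, with the 95% interval of the limma fit; squares are the comparisons that chose QQS and carry no test. Line effects in CBF3 lie about 0, M6PR is at -1.17 without salt and 0.10 with salt, salt in Col is at -1.72, and Ws minus Col is at -2.51.

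QQS was lower with salt in Col. At 100 mM the Col arrays read 5.57 and 6.12, against 7.49 and 7.63 at 0 mM. QQS fell by 1.72 log2 units (SE 0.23, adjusted p = 0.000471), or 3.29-fold lower with salt. The groups did not overlap, and the call held with each of the 4 arrays left out (-1.99 to -1.44). Without the 100 mM array of weak rRNA signal the difference was -1.44 (adjusted p = 0.00909). Salt in Col called 4764 probe sets, 20.9% of all, with 10.8% lower and 10.1% higher, so that QQS was 1 of many to change there. PYK10 moved the other way, reading 9.92 and 7.62 with salt and 4.304 and 4.22 without (a rise of 4.51 ± 0.79, adjusted p = 0.00183). EXPA7 was at -0.43 ± 0.25 and did not pass, and the log2 of the summed root signal ran from 7.75 to 9.96 with salt and from 5.53 to 5.55 without. The senescence gene WRKY53 rose by 3.0 ± 0.42 in the same arrays (adjusted p = 0.000567), and the log2 of the summed signal of both senescence genes ran from 8.35 to 8.78 with salt and from 6.21 to 6.26 without. TRY fell, reading 5.84 and 5.94 with salt and 8.09 and 7.88 without, a log2 difference of -2.10 ± 0.33 (adjusted p = 0.000953). Without the array of weak rRNA signal PYK10 (3.36), WRKY53 (3.23) and TRY (-2.05) kept their calls. The part of these in the QQS value was not tested.

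In the other genotypes of the Ws and Col backgrounds the salt difference of QQS did not pass. It was -0.45 ± 0.23 in M6PR (adjusted p = 0.573), with both salted arrays below both unsalted ones, -0.40 ± 0.23 in CBF3 (adjusted p = 0.9999) and -0.27 ± 0.23 in Ws (adjusted p = 0.598), with overlapping arrays in both. Without the Ws array of weak rRNA signal it was -0.14 in Ws (adjusted p = 0.967). The SOS1 and Col(gl) arrays chose QQS, so their salt differences are a description. In SOS1 it was 0.03 ± 0.23 (95% interval -0.47 to 0.53), and the SOS1 arrays of both salt levels overlapped. In Col(gl) it was 0.23 ± 0.23 (95% interval -0.27 to 0.72), with both salted arrays slightly above both unsalted ones. The share of all probe sets called with salt was 0.541% in M6PR, 0.00879% in CBF3, 4.71% in Ws, 0% in SOS1 and 0.132% in Col(gl). SOS1 had 0 calls in limma at the adjusted threshold and 1694 probe sets at an unadjusted p below 0.05.

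Averaged over the 4 genotypes of the Ws and Col backgrounds, whose arrays did not choose QQS, QQS was lower with salt. The group means averaged 4.97 at 100 mM and 5.68 at 0 mM, a log2 difference of -0.71 ± 0.12 (SE, limma adjusted p = 0.00138; 13.7% of probe sets called), negative in 4 of 4 genotypes. An exact two-sided permutation test, with salt labels exchanged within each genotype (1296 arrangements), gave p = 0.00926. The average rested on Col: over CBF3, Ws and M6PR alone it was -0.37 ± 0.13 (adjusted p = 0.187, exact permutation p = 0.0556; 2.36% called). The permutation test was planned over all 6 genotypes, not over these subsets. The limma fits of these averages were added after the values were seen. The genotypes left out, SOS1 and Col(gl), had salt differences of 0.03 and 0.23, which were not negative. Neither average is given without the arrays of weak rRNA signal. Over all 6 genotypes the mean difference was -0.43 ± 0.10 (-0.36 without the pair of arrays with weak rRNA signal), and without Col -0.17 ± 0.10, both as a description, since SOS1 and Col(gl) enter (10.2% of probe sets called, 4.63% as lower, and 1.96% without Col).

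The response to salt differed between M6PR and Col. It was -0.45 in M6PR and -1.72 in Col, a difference of 1.27 ± 0.33 (SE, n = 2 arrays per group, adjusted p = 0.0350; 6.08% of probe sets called, 3.26% as higher). TRY differed in the same direction, by 2.82 ± 0.46 (adjusted p = 0.00617). The QQS call was lost in a separate fit of the Col background (adjusted p = 0.0774) and without the 2 arrays of weak rRNA signal (0.99, adjusted p = 0.157). Leaving out single arrays gave 0.99 to 1.55. Of the 8 arrays, 6 ended the call when left out: both at 0 mM of each genotype and replicate 1 at 100 mM of each. Between CBF3 and Ws the responses differed by -0.13 ± 0.33 (adjusted p = 0.945, 95% interval -0.83 to 0.57; 0.0703% called), and by -0.26 without the pair of arrays. Other differences were added after the values were seen, and are not given without that pair. Salt in Ws less salt in Col was 1.45 ± 0.33 (adjusted p = 0.118; 0.149% called). Against Col(gl), as a description with no test, the salt difference was -1.94 ± 0.33 in Col (3.25% called), -0.50 ± 0.33 in Ws (0.55%) and -0.67 ± 0.33 in M6PR (0.171%). The M6PR line effect less the CBF3 line effect was 0.12 ± 0.33 at 100 mM (adjusted p = 0.993; 0.594% called) and -1.29 ± 0.33 at 0 mM (adjusted p = 0.0849; 1.18% called).

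QQS was lower in Ws than in Col, the 2 wild types whose arrays had no part in choosing it. Averaged over salt levels the signal was 4.19 in Ws and 6.70 in Col, a log2 difference of -2.51 ± 0.16 (SE, adjusted p = 7.54e-08). No fold is given, since the Ws signals were low and no detection calls were at hand. All 4 Ws arrays were below all 4 Col arrays, 10.2% of probe sets were called, 5.26% as lower, and the call held in every alternative run for it (-2.65 to -2.37). PYK10 and WRKY53 were lower in Ws as well, with log2 differences of -2.00 ± 0.56 (adjusted p = 0.0328) and -1.09 ± 0.30 (adjusted p = 0.0274), and their part was not tested. The PYK10 difference lay mostly at 100 mM, with means of 5.13 in Ws and 8.77 in Col, against 3.90 and 4.26 at 0 mM. Without the pair of arrays with weak rRNA signal QQS was at -2.58 and PYK10 at -2.15, both still called, and WRKY53 at -1.01 lost its call (adjusted p = 0.128). The CBF3 line sat with Ws: the highest of the 8 Ws-background arrays read 4.68 and the lowest of the 16 Columbia-background arrays 5.57, a gap of 0.88. That lowest array was Col 100 mM replicate 1, of weak rRNA signal, and M6PR 100 mM replicate 2 came next at 5.73. Of all probe sets, 263 (1.16%) had all 8 Ws-background arrays below the other 16, and 70 (0.308%) by at least the gap of QQS. The gap and these counts are not given without the arrays of weak rRNA signal. The probes were designed on the Columbia genome, and a lower RNA level and a weaker match of Ws RNA to the probes cannot be told apart in these values. The submitters' free-text descriptions name Col for CBF3 samples and Ws for M6PR samples, against the genetic background in their characteristics, which is used here. By QQS signal the CBF3 arrays lay with Ws and the M6PR arrays with the Columbia wild types, as the characteristics have it.

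The measured starch genes had no call in the SOS1 comparisons that chose QQS, and some varied with it in the other backgrounds. Of 48 listed genes of starch synthesis and breakdown, 12 had a probe set paired with 1 gene. Over the 12 group means their Pearson correlation with QQS ran from -0.61 (APL4) to 0.48 (DPE1, for the plastid disproportionating enzyme), given as a description over groups that share backgrounds. Over the 8 groups of the Ws and Col backgrounds the coefficients were higher for AT5G39790 (0.83) and AT5G65685 (0.77), both of the synthesis list, and lowest for APL4 (-0.71). Of the leaf markers, LHCB4.1 had 0.87 and RCA -0.21 over these groups, so a high coefficient was not particular to starch genes. AT5G39790 fell in Ws against Col by 0.50 (adjusted p = 0.0180), a call lost without the pair of arrays with weak rRNA signal (adjusted p = 0.123), and was at -0.57 ± 0.18 in M6PR against Col at 0 mM (adjusted p = 0.0545). In SOS1 against Col(gl), 0 of 12 passed limma's adjusted threshold at 100 mM, with log2 differences of -0.33 to 0.48, and 0 of 12 at 0 mM, with -0.59 to 0.25. Of all probe sets 3.13% were called at 100 mM and 1.24% at 0 mM, beside which 0 of 12 does not stand out. At 0 mM, 3 of 12 passed without SOS1 replicate 2, where 4439 of all probe sets did, and 1 with arrays centred on their medians. Over the 14 comparisons planned as tests, the 12 genes gave 11 calls upward and 9 downward in 168 tests, spread over 9 of the genes. Among these are salt in SOS1, in Col(gl) and over 6 genotypes, where QQS carries no test here. The average over 6 genotypes gave 3 of the calls and shares its arrays with the other salt comparisons. Pooled over the 14 comparisons, 5.3% of the tests of all probe sets were called, and the share differed widely between comparisons.

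APL4 and APL3 encode large subunits of ADP-glucose pyrophosphorylase, the enzyme that makes the glucose donor for starch. APL4 averaged 6.45 ± 0.21 at 100 mM and 5.19 ± 0.17 at 0 mM in Col (SD, n = 2), a rise of 1.26 ± 0.26 (SE, adjusted p = 0.00422). It also rose with salt in Ws, by 1.33 ± 0.26 (adjusted p = 0.00984). Averaged over 6 genotypes APL4 rose by 1.10 ± 0.11 (adjusted p = 4.27e-05). APL4 was also higher in Ws than in Col, by 0.70 ± 0.18 (adjusted p = 0.0216), so that in Col and between the wild types it moved opposite to QQS. Without the pair of arrays with weak rRNA signal the average kept its call (1.08), and the rise in Col (1.11, adjusted p = 0.0582), that in Ws (1.36, adjusted p = 0.0683) and the difference between wild types (0.79, adjusted p = 0.0656) did not.

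APL3 was lower in M6PR without salt, like QQS. It averaged 7.28 ± 0.02 in M6PR and 8.97 ± 0.29 in Col at 0 mM (SD, n = 2 each), and fell by 1.69 log2 units (adjusted p = 0.00596). Its salt response differed between M6PR and Col by 1.89 ± 0.50 (adjusted p = 0.0381), as that of QQS did, and like that of QQS the call was lost without the pair of arrays (1.68, adjusted p = 0.129). APL3 also fell in CBF3 against Ws at 0 mM, by 1.41 (adjusted p = 0.0258), where QQS was at 0.12. SBE2.2, for a starch branching enzyme, fell with salt in Col by 0.56 (adjusted p = 0.0373) and in Ws by 0.71 (adjusted p = 0.0356), and lost both calls without the pair of arrays (-0.44 and -0.60).

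On the side of breakdown, AMY1, for an alpha-amylase, rose with salt in Ws by 1.24 ± 0.34 (adjusted p = 0.0478). With all arrays AMY1 had no call in Col, where it read 6.16 and 7.54 with salt and 6.22 and 5.75 without. Leaving out the pair of arrays left a single salted array in each wild type, and its salt differences were then 1.55 in Ws and 1.56 in Col. Both loci with the symbol PWD in RefSeq were measured. AT5G26570 is listed as PWD, for phosphoglucan water dikinase, and AT4G24450 is listed under another name, GWD2. AT4G24450 fell with salt in Col, with a log2 difference of -1.196 (SE 0.30, adjusted p = 0.0120; -1.09 and adjusted p = 0.0657 without the array of weak rRNA signal), and AT5G26570 passed in none of these comparisons. AT3G55760, listed with the breakdown genes, rose in CBF3 against Ws by 2.62 ± 0.26 at 100 mM (adjusted p = 3.05e-05) and by 2.80 ± 0.26 at 0 mM (adjusted p = 7.76e-06). QQS had no call in either. The synthesis list had a median log2 difference of -0.37 with salt in Col (1 rose and 1 fell of 7), the breakdown list 0.38 (0 rose and 1 fell of 5), and all probe sets -0.12. Of all probe sets 10.1% rose and 10.8% fell with salt in Col, beside which list counts of 0 or 1 do not stand out.

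**Figure D3:**
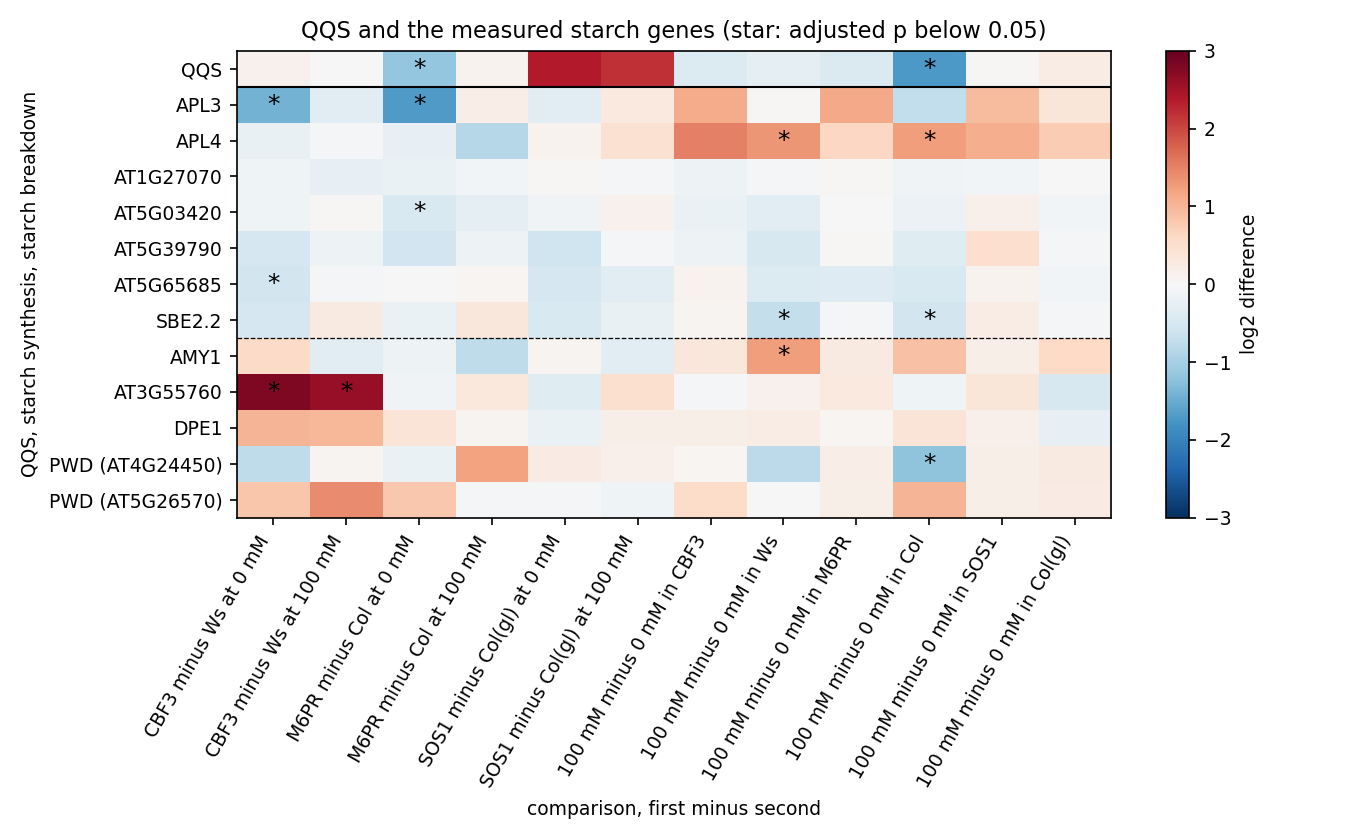
Log2 differences of QQS (top row) and the 12 measured starch genes (synthesis above the dashed line, breakdown under it) in 12 comparisons, as colour from -3 to 3; a star marks an adjusted p below 0.05, and the QQS values for SOS1 against Col(gl) carry no test. QQS is at 2.37 (0 mM) and 2.18 (100 mM) in the SOS1 against Col(gl) columns, the comparisons that chose it. The 12 starch genes have no star there, in comparisons that called 1.24% and 3.13% of all probe sets.

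Of the sugar and energy list, SWEET11, a sucrose exporter, was the 1 measured gene of 18. It fell with salt in Col by 0.74 ± 0.22 (adjusted p = 0.0254; -0.41 and adjusted p = 0.101 without the array of weak rRNA signal), where QQS fell too, and its group means correlated with those of QQS at r = 0.71 over the 12 groups. Of the 23 listed genes of DNA methylation and silencing, only DME, for a DNA demethylating glycosylase, was measured, by 3 probe sets. With salt in Col 2 of them fell, by 1.10 ± 0.29 (adjusted p = 0.0156) and 0.95 ± 0.23 (adjusted p = 0.00909), and neither passed without the array of weak rRNA signal (-0.63 and -0.59). The correlation of the 3 with QQS over the 12 groups was 0.04 to 0.27. The 1 measured of 5 flower and pollen genes, AT5G45880, passed in none of the comparisons.

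The nearest gene with a probe set of its own, AT3G30730, the fourth gene beyond QQS in the annotation, varied little. It read 3.45 and 3.39 in SOS1 and 3.48 and 3.40 in Col(gl) at 100 mM, and 3.68 and 3.52 in SOS1 and 3.41 and 3.46 in Col(gl) at 0 mM. Its group means lay between 3.24 and 3.597 and correlated with those of QQS at r = 0.65, over a span far below that of QQS. It was called in none of the comparisons, and its signals were close to the lowest on each array (2.902 to 3.08).

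By likeness of pattern, the genes closest to QQS over the 12 group means were AT4G13100 (Pearson r = 0.94), MSRB6 (0.94), for a methionine sulfoxide reductase, AT1G58150 (0.90), AT2G41800 (0.89) and AT1G70810 (0.88). They come from 1661 single-gene probe sets whose group means had an SD of at least 0.5. The least alike were ATCES1 (-0.95), AT3G49310 (-0.92) and AT5G26830 (-0.91). The 12 points share backgrounds and pairs of arrays, and QQS was chosen partly for this pattern, so the coefficients are a description. AT4G13100 averaged 7.41 in SOS1 and 6.55 in Col(gl) at 100 mM, and 7.57 in SOS1 and 6.76 in Col(gl) at 0 mM. Its differences of 0.86 and 0.81 did not pass (adjusted p = 0.280 and 0.329). MSRB6 had differences of 1.04 and 1.12 that did not pass either (adjusted p = 0.376 and 0.329). All 5 of the most alike genes were below their own mean in each of the 4 Ws-background groups, as QQS was, and none passed in SOS1 against Col(gl) at either level.

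Over the 8 groups of the Ws and Col backgrounds, which the choice of QQS did not use, other genes were the most alike. They were AT1G23830 (r = 0.98), AT1G23140 (0.98), AT5G39030 (0.98), the cytochrome P450 gene CYP71B24 (0.97) and AT3G16990 (0.97), from 1809 candidates. The least alike were AT3G50210 (-0.98), AT3G52390 (-0.98) and AT3G07510 (-0.97). In SOS1 against Col(gl) all 5 of the most alike had log2 differences below 0, where QQS was at 2.18 and 2.37. AT1G23140 fell there at 0 mM, by 1.11 (adjusted p = 0.0362), with means of 5.62 in SOS1 and 6.73 in Col(gl). Its coefficient over all 12 groups was 0.67.

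**Figure D4:**
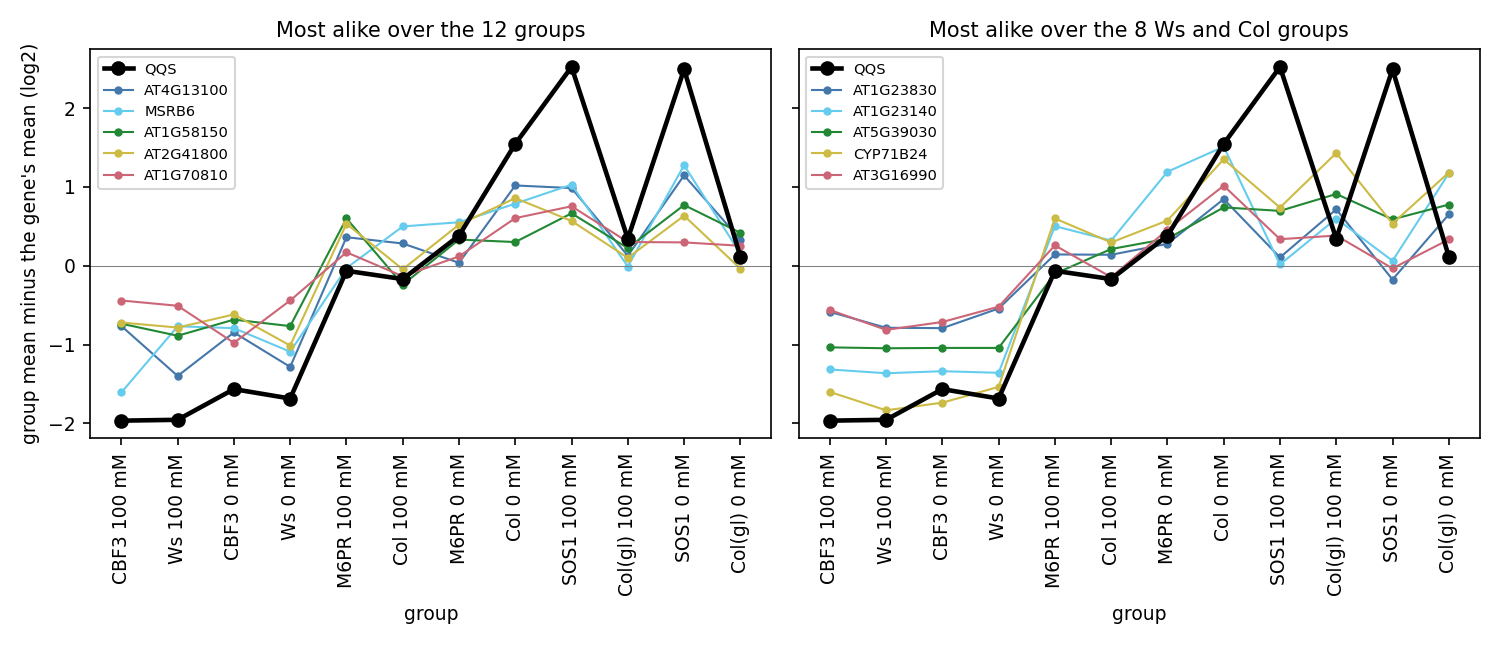
Group means of QQS (black) and of the 5 most alike genes, each minus the gene's own mean over 12 groups, in log2 units; the left panel ranks genes over the 12 groups and the right panel over the 8 Ws and Col groups. All genes shown are below 0 in the 4 Ws-background groups. QQS is higher in both SOS1 groups than any of them on this scale, but it was chosen for its rise there.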

How the data were processed

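The deposited table holds log2 signals for 22810 probe sets on 24 arrays; the submitters' processing notes name GCOS and RMA without versions, and the log2 scale was read from the values (2.902 to 14.3). RMA brings all arrays to a common distribution, which reduces any shift that most probe sets share. After leaving out 64 controls, 22746 probe sets were tested with limma 3.58.1 (R 4.3.3), fitting the 12 group means with 12 residual degrees of freedom, two-sided, Benjamini-Hochberg over all probe sets, threshold 0.05. Errors of differences are SE of that fit, which pools the spread of all groups. With 2 arrays per group, an exact test of 2 against 2 cannot go below p = 0.333. The number of arrays limits the precision.

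QQS is the 1 probe set paired with that symbol in the platform annotation, in which 13513 probe sets have 1 gene, 503 several and 8730 none; symbols came from RefSeq (TAIR10.1) by gene ID for 13436. Coordinates are left out because the labels name no genome build. The member and the gene lists were chosen with earlier results of these data known; 22 of 138 list entries were measured. The planned tests of salt in SOS1, in Col(gl) and over all 6 genotypes are given without p-values, since their arrays chose QQS. Genes were named by likeness of pattern (5 highest and 3 lowest), by place beside QQS, and as list members that passed. The fit was tested on simulated data. Alternatives were array centring, quantile normalization, a filter on the dimmest 40% of probe sets, separate fits per background, a replicate block, leaving out the pair of arrays with weak controls, and each array in turn. The design text calls replicates biological; each sample pools at least 15 seedlings.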

Additional observations from a re-analysis of the deposited data

Results flagged for a closer look

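The effect of salt on QQS differed between M6PR and Col by a test of the difference, and the call was not stable. The salt effects were -0.45 in M6PR and -1.72 in Col, a difference of 1.27 ± 0.33 log2 units (SE, n = 2 arrays per group, limma adjusted p = 0.0350). The call was lost in 6 of 8 fits with 1 array left out, in the separate fit per background (adjusted p = 0.0774) and without the pair of arrays with weak controls (0.99, adjusted p = 0.157). The difference kept its sign in all of these fits.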

How the results depend on the processing

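Over the alternatives, the fall of QQS with salt in Col and its lower signal in Ws than in Col kept direction and call throughout. With 1 array left out, 86 values kept direction and, where tested, side of the threshold, 10 changed sign and 8 lost a call; under other settings 94, 4 and 3 did. These counts include the values described above without a test, among them SOS1 minus Col(gl), which chose QQS. Differences near 0 changed sign: CBF3 minus Ws at 100 mM was 0.0932 with centred arrays, salt in SOS1 was -0.0305 with centred arrays and -0.0833 after quantile normalization, and M6PR minus Col at 100 mM was -0.17 without the pair of arrays with weak controls. The M6PR and Col salt difference lost its call in separate fits per background (1.27) and without that pair (0.99), and the average salt effect without Col (-0.17). The cause was not tested. With 1 array left out, values ran from -1.29 to -1.05 for M6PR minus Col at 0 mM, -0.17 to 0.38 at 100 mM, -0.12 to 0.36 for CBF3 minus Ws at 0 mM, -0.29 to 0.27 at 100 mM, -0.0547 to 0.12 for salt in SOS1, 0.99 to 1.55 for the M6PR and Col salt difference and -0.41 to 0.15 for the CBF3 and Ws one. Starch genes had 20 calls over the comparisons, 13 without the pair of arrays with weak controls and 22 to 27 otherwise. Of the 5 most alike genes, 3 were shared by Spearman's rho and 3 over 24 arrays. A separate fit per background cannot give the average over genotypes or Ws minus Col. The main fit did not pair samples by replicate number. Correlations of replicate differences ran from -0.36 to 0.55 over 12 compared pairs, with 6 over 0.1 and 2 under -0.1. With the replicate block, M6PR minus Col at 0 mM was -1.17 (adjusted p = 0.00477), salt in Col -1.72 (adjusted p = 0.00063), and no QQS call changed. Counts of calls over all probe sets moved by over 1.5 times: salt in Col called 4764 (1409 to 6033 over alternatives), M6PR minus Col at 0 mM 2346 (944 to 2451), Ws minus Col 2316 (1356 to 2453), salt on average 2311 (445 to 5147), CBF3 minus Ws 848 (278 to 1367) at 100 mM and 1545 (463 to 1686) at 0 mM, M6PR minus Col at 100 mM 120 (10 to 3720), and SOS1 minus Col(gl) 713 (88 to 1483) at 100 mM and 281 (16 to 4439) at 0 mM. Salt called 1072 (123 to 1775) in Ws, 123 (11 to 375) in M6PR, 30 (0 to 55) in Col(gl), 2 (0 to 83) in CBF3 and 0 (0 to 3787) in SOS1. The salt differences called 1382 (150 to 3860) between M6PR and Col, 16 (3 to 474) between CBF3 and Ws and 0 (0 to 661) between SOS1 and Col(gl).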
